A study of Mus musculus with 33 samples.

Results

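The 9 genes described here encode the enzymes that carry acetyl-CoA to squalene, the first part of cholesterol synthesis, together with the branch enzyme Ggps1. They are Acat2, Hmgcs1, Mvk, Pmvk, Mvd, Idi1, Fdps, Ggps1 and Fdft1. Members were taken as rows of the gene count table whose gene name equals 1 of these names, and all 9 of 9 were found among 19169 genes. All 9 also passed the filter on low counts that left 14934 genes for testing. Polyadenylated RNA of mouse liver was sequenced in 33 libraries of 4 groups. Knock-in mice (KI, genotype Nlrp3A350V/+CreT) carry a tamoxifen-inducible mutant Nlrp3 allele, and wild-type mice (WT) were their comparison. For 6 weeks the mice ate chow holding GS-444217, which selectively inhibits the stress kinase ASK1 (called ASK1i here), or control chow with placebo (called control). There were 10 KI ASK1i libraries (5 male, 5 female), 5 KI control libraries (4 male, 1 female), 8 WT ASK1i libraries (4 male, 4 female) and 10 WT control libraries (3 male, 7 female). Neither the promoter behind the Cre nor the age of the mice is stated in the labels. The design asks what the mutant inflammasome sensor does to the liver and what inhibition of ASK1 changes in each genotype.

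The mevalonate pathway builds isoprenoids from acetyl-CoA. Its early enzymes make HMG-CoA, which is reduced to mevalonate. Kinases and a decarboxylase then make isopentenyl diphosphate, which is joined into farnesyl diphosphate. From there carbon goes to squalene and sterols, or to geranylgeranyl diphosphate for protein prenylation. In liver, transcription of most of these genes is under SREBP2, a membrane-bound factor that is released for work in the nucleus when sterols in the endoplasmic reticulum are low.

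The stretches of DNA just before 5 members are shown because transcripts of these members stand among those that changed most on the ASK1i diet, and the motifs in them can be read directly. They come from RefSeq (build GRCm38.p6), whose promoter table holds 7 of the 9 members, and each is written 5′ to 3′ on the strand of its gene. Capitals mark the letters TCACNCCAC, the core of a sterol regulatory element, and CCAAT, the CCAAT box bound by NF-Y, searched on both strands (a CCAAT on the opposite strand reads ATTGG). The marked motifs do not overlap each other. The first 4 are the 200 bases before the RefSeq start, at chr13:119690151-119690350 (+) for Hmgcs1, chr8:122443423-122443622 (-) for Mvd, chr13:8885406-8885605 (+) for Idi1 and chr17:12960726-12960925 (-) for Acat2. The last is the 190 bases between Mvk and Mmab, which is transcribed the other way, at chr5:114444074-114444263 (+).
Hmgcs1: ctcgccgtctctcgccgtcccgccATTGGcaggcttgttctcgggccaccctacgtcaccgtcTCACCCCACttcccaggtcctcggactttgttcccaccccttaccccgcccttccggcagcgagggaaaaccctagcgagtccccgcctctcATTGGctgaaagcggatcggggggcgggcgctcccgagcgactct
Mvd: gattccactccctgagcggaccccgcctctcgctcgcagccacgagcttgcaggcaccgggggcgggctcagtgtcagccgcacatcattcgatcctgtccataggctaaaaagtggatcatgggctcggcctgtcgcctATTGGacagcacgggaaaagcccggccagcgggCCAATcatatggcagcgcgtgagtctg
Idi1: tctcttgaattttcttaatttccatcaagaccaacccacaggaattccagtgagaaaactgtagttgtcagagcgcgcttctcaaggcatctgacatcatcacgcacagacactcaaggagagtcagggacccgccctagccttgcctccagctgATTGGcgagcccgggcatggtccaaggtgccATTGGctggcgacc
Acat2: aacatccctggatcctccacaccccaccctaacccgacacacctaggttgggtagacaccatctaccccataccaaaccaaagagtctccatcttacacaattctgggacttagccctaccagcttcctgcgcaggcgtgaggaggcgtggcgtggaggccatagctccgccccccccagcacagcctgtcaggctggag
Mvk: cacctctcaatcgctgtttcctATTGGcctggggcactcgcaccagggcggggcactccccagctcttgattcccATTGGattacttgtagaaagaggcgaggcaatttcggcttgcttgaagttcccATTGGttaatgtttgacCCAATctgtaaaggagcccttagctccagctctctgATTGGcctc

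The sterol element core was in the window of 1 of the 7 members, Hmgcs1, where it lies 137 to 129 bases before the RefSeq start. The same letters are in 1.24% of all 32851 promoter windows in the table (250 bases before to 50 after a start). A CCAAT box was in the windows of 6 of 7 members, all but Acat2, and is in 37.4% of all windows. The stretch between Mvk and Mmab holds 5 of them, and those before Hmgcs1, Mvd and Idi1 hold 2 each. The GC box GGGCGG, bound by Sp1, was in the windows of 5 of 7 members (Acat2, Hmgcs1, Mvk, Mvd and Idi1) and is in 35.7% of all windows. Ggps1, which did not move with the other members, also has CCAAT boxes in its window. They lie 201 to 197, 160 to 156 and 55 to 51 bases before the start that sets the window. A match is a description of these letters and not a bound site.

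On mm10 coordinates the members do not overlap each other. Hmgcs1, Idi1 and Ggps1 share chr13, and Pmvk and Fdps share chr3. Acat2 lies at chr17:12943042-12960725, Hmgcs1 at chr13:119690462-119708077, Mvk at chr5:114444306-114460590, Pmvk at chr3:89454541-89469009 and Mvd at chr8:122433596-122443422. Idi1 lies at chr13:8885606-8892396, Fdps at chr3:89093588-89101967, Ggps1 at chr13:14050929-14063401 and Fdft1 at chr14:63145150-63179578. These positions came with the deposited counts. RefSeq, used for the stretches above, starts Hmgcs1 at chr13:119690351 and Mvk at chr5:114444264. Acat2 has a near-copy beside it, Acat3, at chr17:12923959-12940396. The counting tool divides reads that fit both genes, so the split between Acat2 and Acat3 is uncertain.

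Total counts per library ran from 28099685 to 40008114, which gave each member at least 106 reads in every library. Nlrp3, the targeted gene, averaged 7.90 ± 2.66 CPM (counts scaled to a common library total) in KI ASK1i (SD, n = 10), 11.1 ± 3.45 in KI control (n = 5), 2.73 ± 0.492 in WT ASK1i (n = 8) and 3.03 ± 1.05 in WT control (n = 10). The count shows the level of Nlrp3 and not its mutation. The library labelled KI ASK1i replicate 5 stood apart from its group. Its score on the first principal component was -40.1, inside the spread of WT scores (-47.3 to -33.6), against 46.2 to 68.2 in the remaining 9 libraries of that group, and its Nlrp3 level was 2.10 CPM. It was the lowest of its group for all 9 members, below all 8 WT ASK1i libraries for 9 of 9 and within the range of WT control for 8 of 9. It is kept in the values below, and the comparisons that use KI ASK1i are also given without it. Ranges and means of that group include it unless stated. Hepatocyte markers are abundant in every library, with a summed level of 75793 CPM or more. In such bulk samples, fewer cells of a type and less RNA per cell cannot be told apart.

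Set per kilobase of transcript, the members spanned a wide range of levels. In WT control, Fdps was highest at 66.7 ± 47.5 CPM per kilobase, followed by Hmgcs1 at 61.8 ± 27.7, Idi1 at 46.5 ± 33.8, Fdft1 at 25.6 ± 12.0, Acat2 at 21.6 ± 10.2, Pmvk at 21.1 ± 9.28, Mvk at 9.04 ± 4.21, Mvd at 5.79 ± 2.93 and Ggps1 at 2.12 ± 0.215 (SD, n = 10). Neighbours in that order were often not separated. Fdps was above Hmgcs1 in 5 of 10 libraries and Acat2 above Pmvk in 4 of 10, whereas Pmvk was above Mvk in 10 of 10. The order was the same in KI control and KI ASK1i. In WT ASK1i Hmgcs1 came first at 223 ± 52.0 CPM per kilobase and Fdps next at 220 ± 53.2 (n = 8), and Hmgcs1 was the higher of the 2 in 5 of 8 libraries. The summed level of the 9 members was 1809 ± 552 CPM in KI ASK1i (1920 ± 452 in the 9 libraries without replicate 5), 1184 ± 355 in KI control, 2115 ± 487 in WT ASK1i and 650 ± 334 in WT control.

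**Figure D1:**
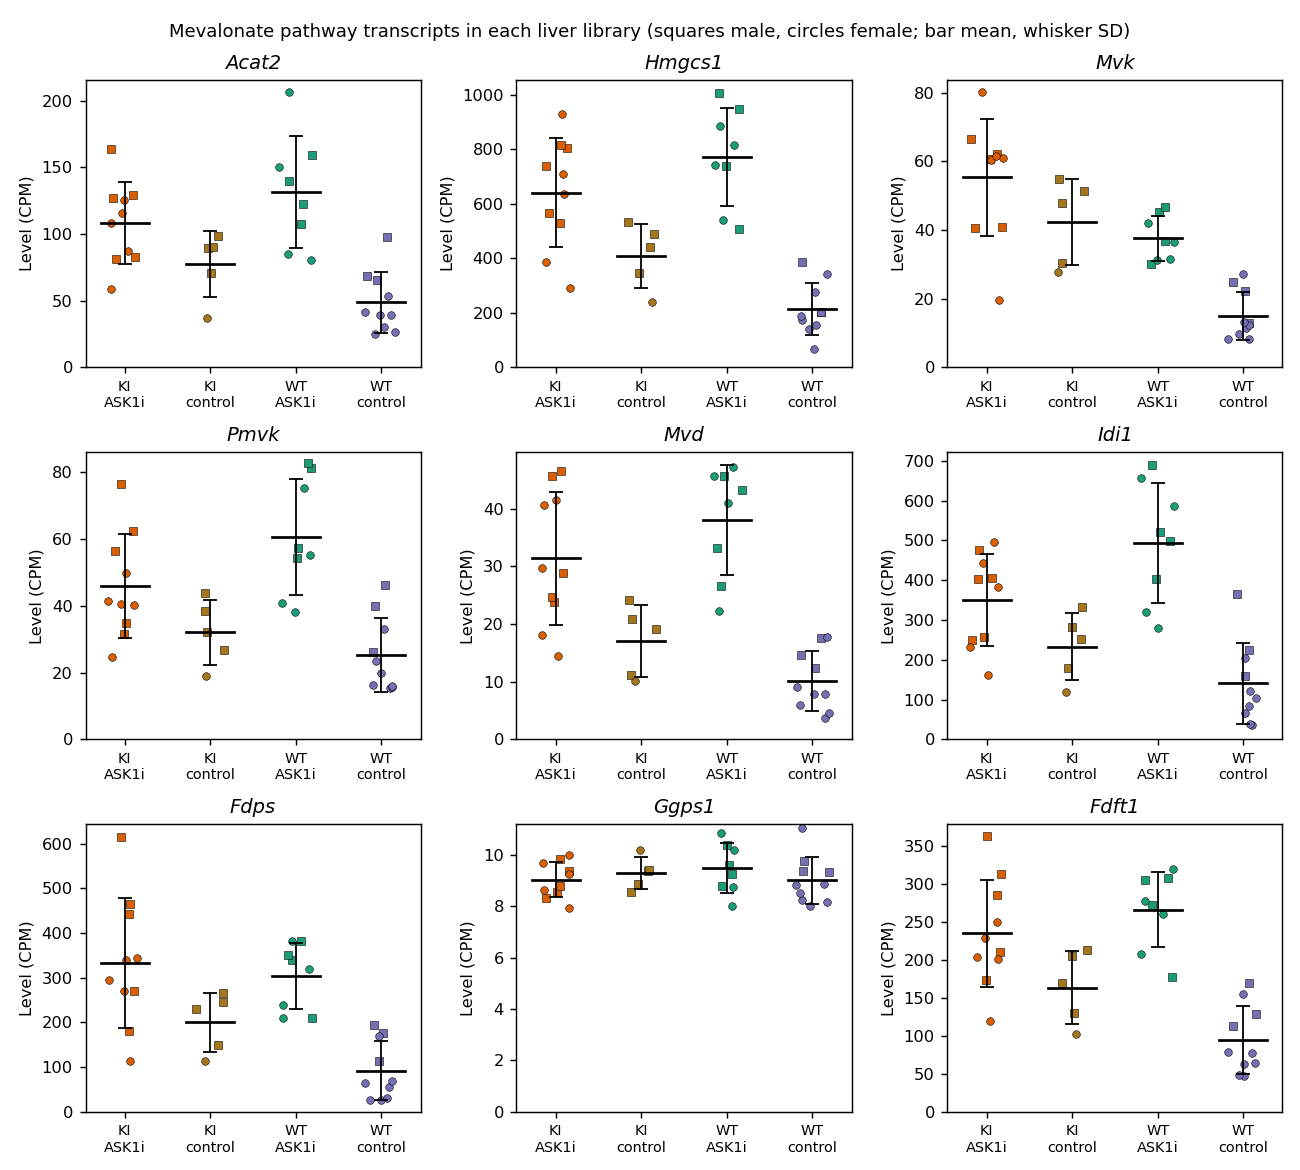
Level in CPM (linear axis from 0) of each member in every library of the 4 groups, with squares for male and circles for female libraries, a bar at the mean and whiskers of 1 SD. WT ASK1i lies above WT control for 8 members, and Ggps1 lies near 9 CPM in every group.

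In WT livers, 8 of the 9 members rose on the ASK1i diet and Ggps1 did not pass the test, whereas 1.4% of all genes tested were called in this comparison and 1.13% were called higher (edgeR's quasi-likelihood test, Benjamini-Hochberg adjusted p under 0.05 over 14934 genes). The rises were 2.21- to 3.59-fold. The median log2 fold change of the 9 members was 1.44, against -0.00169 for all genes tested. All 8 were within the first 40 genes by p, and 4 of them, Acat2, Mvd, Hmgcs1 and Fdft1, were within the first 5.

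The enzymes that make HMG-CoA were both higher on the ASK1i diet in WT livers. Acat2, the cytosolic thiolase that joins 2 acetyl-CoA into acetoacetyl-CoA, had a lowest level of 80.1, a median of 131 and a highest of 207 CPM in WT ASK1i, against 25.1, 40.4 and 97.8 CPM in WT control. The ranges overlapped, with 6 of 8 WT ASK1i libraries above all WT control libraries, and the log2 fold change was 1.34 (SE 0.16, edgeR adjusted p = 2.14e-05), the smallest p of all genes. Hmgcs1, the cytosolic HMG-CoA synthase, had a lowest of 506, a median of 777 and a highest of 1007 CPM in WT ASK1i, against 67.1, 196 and 386 CPM in WT control. All 8 WT ASK1i libraries were above all 10 WT control libraries, and the log2 fold change was 1.78 (SE 0.23, edgeR adjusted p = 4.80e-05). Of the 7 members with a promoter window, only Hmgcs1 holds the sterol element core in it. Any part of this motif in the rise was not tested.

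The 3 enzymes that turn mevalonate into isopentenyl diphosphate also rose in WT livers. Mvk, mevalonate kinase, had a lowest of 30.2, a median of 36.6 and a highest of 46.6 CPM in WT ASK1i, against 8.26, 12.6 and 27.1 CPM in WT control. The groups did not overlap, and the log2 fold change was 1.27 (SE 0.22, edgeR adjusted p = 0.00150). Pmvk, the phosphomevalonate kinase, reached 38.2, 56.4 and 82.7 CPM (lowest, median and highest) in WT ASK1i, against 15.5, 21.7 and 46.4 CPM in WT control. Its groups overlapped, and its log2 fold change of 1.14 (SE 0.18, edgeR adjusted p = 0.000346) was the lowest of the 8. Mvd, the decarboxylase that ends this stretch, had 22.2, 42.1 and 47.2 CPM in WT ASK1i, against 3.80, 8.53 and 17.7 CPM in WT control. With no overlap and a log2 fold change of 1.85 (SE 0.23, edgeR adjusted p = 2.14e-05), it was the highest rise of the members.

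The enzymes that join the isoprene units rose as well. Idi1, the isomerase that makes dimethylallyl diphosphate, had a lowest of 279, a median of 510 and a highest of 689 CPM in WT ASK1i, against 35.4, 113 and 366 CPM in WT control. Its groups overlapped, with 6 of 8 WT ASK1i libraries above all WT control libraries, and the log2 fold change was 1.77 (SE 0.26, edgeR adjusted p = 0.000187). Fdps, which makes farnesyl diphosphate, had 210, 329 and 383 CPM in WT ASK1i, against 26.3, 66.3 and 193 CPM in WT control. Its groups did not overlap, with a log2 fold change of 1.66 (SE 0.29, edgeR adjusted p = 0.00156). Fdft1, squalene synthase, which commits farnesyl diphosphate to sterols, had 178, 276 and 320 CPM in WT ASK1i, against 46.9, 78.3 and 170 CPM in WT control. Here too the groups did not overlap, and the log2 fold change was 1.44 (SE 0.19, edgeR adjusted p = 7.34e-05).

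Ggps1, the enzyme that diverts farnesyl diphosphate to geranylgeranyl diphosphate, did not pass the test. It had 8.02, 9.43 and 10.9 CPM (lowest, median and highest) in WT ASK1i, against 8.02, 8.84 and 11.0 CPM in WT control. The log2 fold change was 0.06 (95% interval -0.07 to 0.20, edgeR adjusted p = 0.727). The interval of Ggps1 ends below that of each of the other 8 members, the lowest of which, for Pmvk, begins at 0.79.

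In all, 5 of 9 members (Hmgcs1, Mvk, Mvd, Fdps and Fdft1) had every WT ASK1i library above every WT control library, which held for 0.241% of all genes tested. Library codes in the titles limit this comparison, as only the code L6 holds libraries of both groups. The code L5 holds 4 WT control libraries, all female, and no WT ASK1i library. Among the codes of WT control it had the lowest median for 9 of 9 members. Within the code L6, which holds 4 libraries of each of the 2 groups, 7 of 9 members again had every WT ASK1i library above every WT control library, as did 2.97% of all genes tested. The sexes are uneven in L6. WT ASK1i replicates 2, 3 and 4 are male and 5 is female, whereas WT control replicates 4, 6 and 7 are female and 8 is male. This count does not separate diet from sex. The log2 fold changes of the 8 members there were 0.66 to 1.83, but no gene passed the adjusted threshold (adjusted p = 0.133 to 0.735 for the 8). With the code as a term in place of the title set, or with the numbered titles alone, 5 members (Acat2, Hmgcs1, Mvd, Idi1 and Fdft1) were called and Mvk, Pmvk and Fdps were not. In males alone the 8 log2 fold changes were 0.92 to 1.77, and in females alone 1.06 to 1.90, with no member called in either (adjusted p of at least 0.189 and 0.0637).

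**Figure D2:**
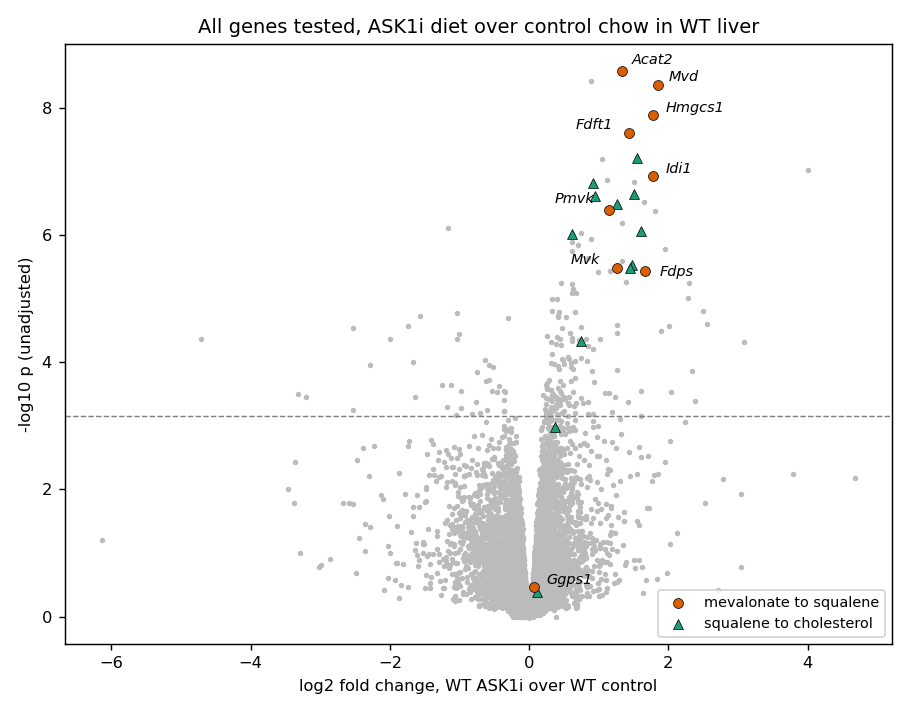
Log2 fold change of WT ASK1i over WT control (x axis) against the unadjusted p of edgeR's test on a -log10 scale (y axis) for the 14934 genes tested, with the members as orange circles, genes from squalene to cholesterol as green triangles and a dashed line at the adjusted threshold of 0.05. Of the members, 8 lie at the upper right, with log2 fold changes of 1.14 to 1.85, and Ggps1 lies at 0.06.

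The rise went on past squalene. Of 12 genes that carry squalene to cholesterol, 10 rose in WT livers on the ASK1i diet and 0 fell, with a median log2 fold change of 1.10. Among them were Cyp51, the lanosterol demethylase (log2 fold change 1.55, SE 0.22, edgeR adjusted p = 0.000133), Sc5d, the lathosterol oxidase (0.92, SE 0.14, edgeR adjusted p = 0.000187), and Nsdhl, a sterol dehydrogenase (1.51, SE 0.23, edgeR adjusted p = 0.000255). Of 14 genes of SREBP2 control and cholesterol uptake, 5 rose and 1 fell. Srebf2, which encodes SREBP2, rose by 0.62 (SE 0.10, edgeR adjusted p = 0.000772). The 1 that fell was Mylip, a ubiquitin ligase of the LDL receptor, named after its value was seen (-0.36, SE 0.09, edgeR adjusted p = 0.0449), a call lost when any of 19 of the 33 libraries was left out (adjusted p up to 0.143).

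The branches that use farnesyl and geranylgeranyl diphosphate for other products had no calls in WT livers. Of 9 genes of the polyprenyl, dolichol and ubiquinone branch 0 were called, with log2 fold changes of -0.06 to 0.24, and of 9 prenyltransferase and CAAX-processing genes 0 were called, with values of -0.15 to 0.18 (edgeR). Across all genes, 2079 had an unadjusted p under 0.05 in this comparison, and 365 were called by DESeq2. Of 6 genes of acetyl-CoA supply and use, 3 rose, namely Acss2 (1.40, SE 0.25, edgeR adjusted p = 0.00217), Slc25a1 (0.46, SE 0.08, edgeR adjusted p = 0.00217) and Acly (0.50, SE 0.12, edgeR adjusted p = 0.0346), which together bring citrate to the cytosol and make acetyl-CoA from it or from acetate. Of 11 genes of sterol esters, export and bile acids, 1 rose, Abcg8, a partner in sterol secretion into bile (0.75, SE 0.19, edgeR adjusted p = 0.0350). The calls for Acly and Abcg8 were lost without any of 12 and 11 of the 33 libraries (adjusted p up to 0.158 and 0.130). Of the marker lists of liver and blood cells, none held a called gene in this comparison. Neutrophil markers summed to a median of 3.90 CPM (2.26 to 7.24) in WT ASK1i and 9.08 CPM (3.88 to 18.2) in WT control, and hepatocyte markers to 131980 CPM (118497 to 163167) and 141239 CPM (122167 to 148834). Their part in the members' values was not tested.

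**Figure D3:**
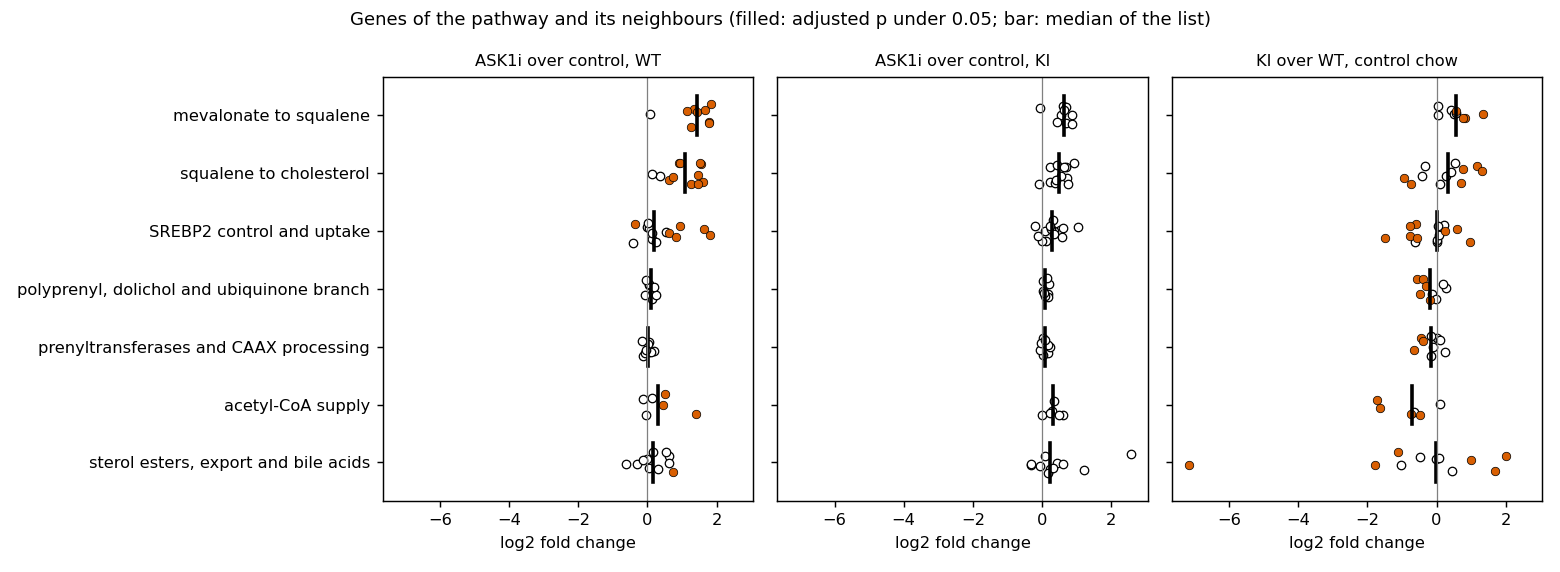
Log2 fold changes (x axis, 3 comparisons) of the genes in the pathway and in 6 lists around it, with filled points for genes called at an adjusted p under 0.05 and a bar at the median of each list. In WT livers on the ASK1i diet the called genes are mostly in the upper 3 rows, whose medians are 1.44, 1.10 and 0.20.

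In KI livers no member passed the test on the same diet. The log2 fold changes were positive for 8 of 9 members, all but Ggps1. The background was also low, with 0.0536% of all genes called and 0% called higher (edgeR; 1539 genes had an unadjusted p under 0.05, 37 were called by DESeq2 and 8 by limma-voom). Acat2 had a lowest of 58.5, a median of 112 and a highest of 164 CPM in KI ASK1i, against 36.9, 70.9, 89.7, 90.5 and 98.8 CPM in the 5 KI control libraries. Hmgcs1 had 289, 673 and 928 CPM in KI ASK1i (lowest, median and highest), against 238, 347, 441, 487 and 531 CPM in KI control. Fdps had 114, 317 and 614 CPM in KI ASK1i, against 113, 148, 231, 245 and 265 CPM in KI control. For each of these 3 the groups overlapped at the low end, and 6, 7 and 8 of 10 KI ASK1i libraries lay above all KI control libraries. Mvd, with 14.6, 29.3 and 46.5 CPM in KI ASK1i, against 10.1, 11.1, 19.1, 20.8 and 24.2 CPM in KI control, had the smallest p of the members. Its log2 fold change was 0.86 (SE 0.27, unadjusted p = 0.00350, edgeR adjusted p = 0.369).

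The log2 fold changes of KI ASK1i over KI control were 0.56 (SE 0.19) for Acat2, 0.70 (SE 0.28) for Hmgcs1, 0.43 (SE 0.27) for Mvk, 0.63 (SE 0.21) for Pmvk, 0.70 (SE 0.31) for Idi1, 0.87 (SE 0.36) for Fdps, 0.60 (SE 0.23) for Fdft1 and -0.05 (SE 0.08) for Ggps1. An unadjusted p under 0.05 was found for 7 of 9 members, and adjusted p ran from 0.369 to 0.806. The median over the 9 members was 0.63, against 0.03 for all genes tested. Without replicate 5 of KI ASK1i the 9 log2 fold changes were -0.04 to 0.94, and 0 members were called (edgeR adjusted p = 0.330 to 0.911). KI control holds 5 libraries, and its only female library, replicate 1, was the lowest of its group for 8 of 9 members. Outside the pathway, 0 of 12 genes from squalene to cholesterol were called in KI livers, with a median of 0.50 (0.54 without replicate 5 of KI ASK1i). Stellate cell and fibroblast markers also differed between these groups, with a summed level of 244 to 524 CPM in KI ASK1i, where the lowest is replicate 5, and 417 to 668 CPM in KI control, and 1 of 10 was called lower. Their part in the pathway's values was not tested.

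The difference between the diet's effects in the 2 genotypes was tested with an interaction term, in which a negative value means a smaller rise in KI than in WT. All 9 estimates were negative, from -1.08 for Hmgcs1 (SE 0.35, 95% interval -1.78 to -0.39) to -0.12 for Ggps1 (SE 0.10, 95% interval -0.32 to 0.09). None passed the test, with edgeR adjusted p of 0.453 to 0.783, and 6 of 9 had an unadjusted p under 0.05. Across all genes the background was 0% called, with 1251 genes at an unadjusted p under 0.05, 16 called by DESeq2 and 2 by limma-voom. The rise of the pathway in WT and its lack of a call in KI were therefore not shown to differ. Without replicate 5 of KI ASK1i the interaction estimates were -1.04 to -0.11 (edgeR adjusted p = 0.349 to 0.770).

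**Figure D4:**
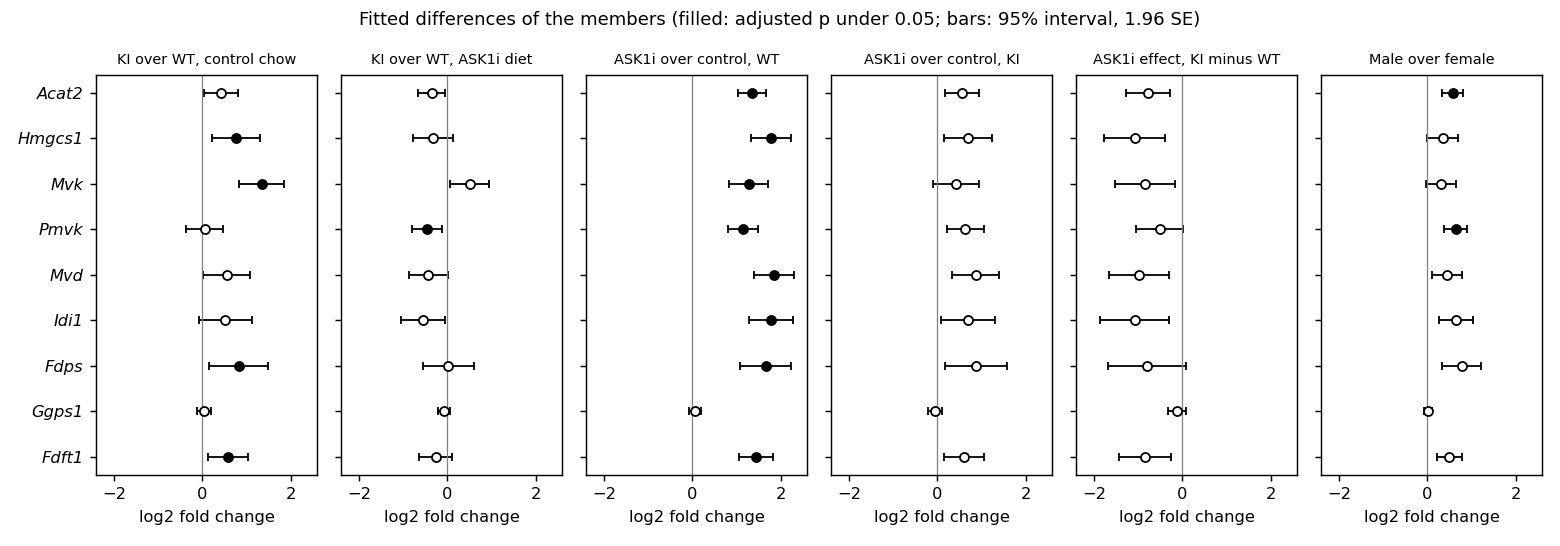
Log2 fold changes of the 9 members in 6 comparisons, with bars for 95% intervals and filled points for an adjusted p under 0.05. The ASK1i diet in WT has 8 filled points, KI over WT on control chow has 4, KI over WT on the ASK1i diet has 1 and male over female has 2.

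On control chow, 4 of 9 members were higher in KI than in WT livers and 0 were lower, in a comparison in which 56.7% of all genes were called, 27.8% higher and 28.9% lower. Taken in either direction, the share of members called was below the 56.7% of all genes. Taken as higher alone, the 4 of 9 stand against 27.8% of all genes. All 9 log2 fold changes were positive, with a median of 0.55, against -0.03 for all genes tested. This comparison and the diet's effect in WT share the WT control libraries, so that low WT control values enter both. Mvk had 27.9, 30.2, 47.8, 51.2 and 55.0 CPM in KI control, against a lowest of 8.26, a median of 12.6 and a highest of 27.1 CPM in WT control. The groups did not overlap, as for 16.3% of all genes in this direction, and the log2 fold change was 1.34 (SE 0.26, edgeR adjusted p = 7.84e-05). The call for Mvk held with each of the 33 libraries left out in turn (adjusted p of 0.000316 at most).

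The other 3 calls had smaller log2 fold changes. Hmgcs1, with the KI control values given above, against 67.1, 196 and 386 CPM (lowest, median and highest) in WT control, had a log2 fold change of 0.76 (SE 0.27, edgeR adjusted p = 0.0198), a call that held with each of the 33 libraries left out (adjusted p of 0.0481 at most). Fdps, with the values given above for both groups, had a log2 fold change of 0.82 (SE 0.34, edgeR adjusted p = 0.0424), and the call was lost without any of 8 libraries (KI control replicates 1, 3 and 4, and WT control replicates 2, 3, 5, 6 and 1P, adjusted p up to 0.0846). Fdft1 had 102, 130, 169, 205 and 213 CPM in KI control, against 46.9, 78.3 and 170 CPM in WT control, and a log2 fold change of 0.58 (SE 0.23, edgeR adjusted p = 0.0333), lost without KI control replicate 3 or 4 or WT control replicate 1P (adjusted p up to 0.0885). For these 3 genes the groups overlapped.

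Acat2 (log2 fold change 0.42, SE 0.19, edgeR adjusted p = 0.0617), Mvd (0.55, SE 0.27, adjusted p = 0.0798) and Idi1 (0.52, SE 0.30, adjusted p = 0.147) did not pass the threshold, and Mvd and Idi1 did so without WT control replicate 7, a female library that is the highest of its group for Mvk and Mvd (adjusted p = 0.00906 and 0.0388). Acat2 passed it when any of 12 libraries was left out (WT control 7, 8 and 2P, WT ASK1i 5 and 6, KI control 1 and 1P, and KI ASK1i 3, 4, 6, 2P and 3P, adjusted p from 0.0231). Pmvk had 18.9, 26.7, 32.1, 38.5 and 44.0 CPM in KI control, against 15.5, 21.7 and 46.4 CPM in WT control, and its log2 fold change of 0.05 (SE 0.21) changed sign in 8 alternatives. Ggps1 was at 0.04 (SE 0.08). No library code holds both KI control and WT control libraries, so code and genotype cannot be told apart here. Within WT control, the 4 libraries of code L5, all female, had the lowest median of the 3 codes for 9 of 9 members. Mvk was at 8.26 to 11.3 CPM there, against 12.4 to 27.1 CPM in the 4 WT control libraries of code L6. In males alone, Mvk and Hmgcs1 were called, with log2 fold changes of 1.24 and 0.92, where 41.9% of all genes were called and 22.3% higher. With the library code in place of the title set 1 member, Mvk, was called at 1.09, where 34.2% of all genes were called.

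The make-up of the liver RNA moved with genotype. Summed hepatocyte markers had a median of 90564 CPM (76367 to 94259) in KI control and 141239 CPM (122167 to 148834) in WT control, and 7 of 10 were called lower and 1 higher. Summed neutrophil markers had a median of 1884 CPM (679 to 3795) in KI control and 9.08 CPM (3.88 to 18.2) in WT control, and 10 of 10 were called higher, as were 10 of 10 macrophage and monocyte markers, at 1840 CPM (1673 to 2081) in KI control and 417 CPM (237 to 593) in WT control. Stellate cell and fibroblast markers were at 656 CPM (417 to 668) in KI control and 308 CPM (237 to 343) in WT control, with 8 of 10 called higher, and cell division markers at 118 CPM (59.6 to 221) in KI control and 40.1 CPM (32.8 to 55.6) in WT control, with 7 of 8 called higher. No defining marker of these lists was at 0 over a whole group. Their part in the members' values was not tested.

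Genes around the pathway did not move as a block between KI and WT on control chow. Of all genes tested in this comparison, 27.8% were called higher and 28.9% lower. Of the 12 genes from squalene to cholesterol 4 were higher and 2 lower, with a median of 0.34. Lbr, a sterol reductase that is also a nuclear envelope protein, was higher (1.18, SE 0.17, edgeR adjusted p = 1.20e-06), whereas Tm7sf2, the other enzyme for the same reduction, was lower (-0.93, SE 0.18, edgeR adjusted p = 6.55e-05), as was Ebp, a sterol isomerase (-0.73, SE 0.13, edgeR adjusted p = 1.76e-05). Of the 14 SREBP2 and uptake genes 3 were higher and 5 lower. Scap, the escort of SREBP2, was lower (-0.76, SE 0.11, edgeR adjusted p = 9.20e-07). Of the 9 polyprenyl, dolichol and ubiquinone genes 5 were lower and 0 higher, and of the 9 prenyltransferase genes 3 were lower and 0 higher. Among the 6 acetyl-CoA genes 4 were lower, including the mitochondrial thiolase Acat1 (-1.63, SE 0.20, edgeR adjusted p = 1.19e-07). Of the 11 sterol ester, export and bile acid genes 3 were higher and 3 lower, with Soat1, a sterol acyltransferase, at 2.00 (SE 0.23, edgeR adjusted p = 3.04e-08).

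On the ASK1i diet, 1 of 9 members, Pmvk, was lower in KI than in WT livers and 0 were higher, in a comparison with 59.1% of all genes called (28.8% of all genes lower and 30.3% higher). Pmvk had a lowest of 24.6, a median of 41.0 and a highest of 76.5 CPM in KI ASK1i, against 38.2, 56.4 and 82.7 CPM in WT ASK1i. The groups overlapped, and the log2 fold change was -0.46 (SE 0.17, edgeR adjusted p = 0.0240). It stayed called without KI ASK1i replicate 5 (-0.42, adjusted p = 0.0428) and was not called without KI ASK1i replicate 1 (adjusted p = 0.0539) or WT ASK1i replicate 2P (adjusted p = 0.0916). Mvk pointed the other way, with 19.6, 60.9 and 80.2 CPM in KI ASK1i, against 30.2, 36.6 and 46.6 CPM in WT ASK1i. Of 10 KI ASK1i libraries 7 were above all WT ASK1i libraries, 1 was below all of them, and the log2 fold change of 0.51 (SE 0.22) did not pass (edgeR adjusted p = 0.0532). Without KI ASK1i replicate 5 the value for Mvk was 0.61 and passed (adjusted p = 0.0121), and it also passed when any of 14 other libraries was left out (WT control 1, 2, 7, 8, 1P and 2P, WT ASK1i 5 and 7, KI control 1, 4 and 1P, and KI ASK1i 1, 2 and 4P).

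The remaining members were near or below WT levels on this diet. Idi1 had 161, 393 and 495 CPM in KI ASK1i (lowest, median and highest), against 279, 510 and 689 CPM in WT ASK1i, with a log2 fold change of -0.56 (SE 0.25, edgeR adjusted p = 0.0590). Acat2 was at -0.36 (SE 0.16, adjusted p = 0.0535), Mvd at -0.43 (SE 0.22, adjusted p = 0.0980), Hmgcs1 at -0.32 (SE 0.23, adjusted p = 0.221), Fdft1 at -0.27 (SE 0.19, adjusted p = 0.240), Ggps1 at -0.08 (SE 0.07, adjusted p = 0.304) and Fdps at 0.03 (SE 0.29, adjusted p = 0.948). Without KI ASK1i replicate 5 none of these 7 passed, with Idi1 at -0.51, Acat2 at -0.32, Mvd at -0.36, Hmgcs1 at -0.25, Fdft1 at -0.21, Ggps1 at -0.06 and Fdps at 0.11 (edgeR adjusted p = 0.0840 to 0.763). Without KI ASK1i replicate 4, a female library, Acat2 and Idi1 passed as lower (adjusted p = 0.00920 and 0.0105). Acat2 also passed without WT control 7, WT ASK1i 4 or KI control 2 or 3, Idi1 without WT control 2, 3 or 7, and Mvd without WT control 7 (adjusted p = 0.0414). Hepatocyte markers had a median of 94826 CPM (75793 to 127256) in KI ASK1i and 131980 CPM (118497 to 163167) in WT ASK1i, and neutrophil markers 1025 CPM (6.67 to 4958) and 3.90 CPM (2.26 to 7.24). The high end of the hepatocyte range and the low end of the neutrophil range in KI ASK1i are those of replicate 5. Their part in these values was not tested. Of the 12 genes from squalene to cholesterol 6 were lower and 1 higher in KI ASK1i than in WT ASK1i, with a median of -0.37. Without replicate 5 of KI ASK1i 5 were lower and 1 higher, with a median of -0.30.

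Between the sexes, 2 of 9 members were higher in male than in female livers and 0 were lower, with 1.49% of all genes called and 0.783% called higher. Acat2 was higher by a log2 fold change of 0.57 (SE 0.12, edgeR adjusted p = 0.0130) and Pmvk by 0.64 (SE 0.14, edgeR adjusted p = 0.0110), in the fit with group and title set. In WT control, Acat2 was at 65.6, 68.4 and 97.8 CPM in the 3 male libraries, against a lowest of 25.1, a median of 39.4 and a highest of 53.5 CPM in the 7 female libraries. How many of all genes separate these libraries by sex was not counted. On the ASK1i diet Acat2 was at 108 to 159 CPM in male and 80.1 to 207 CPM in female WT ASK1i libraries. Pmvk was at 26.1, 39.9 and 46.4 CPM in male WT control libraries, against 15.5, 16.4 and 33.0 CPM (lowest, median and highest) in female ones. The other 7 members ran from 0.01 for Ggps1 to 0.78 for Fdps and did not pass, although 6 of 9 members had an unadjusted p under 0.05. Without WT control replicate 7, Mvd, Idi1, Fdps and Fdft1 passed as higher in males, as did Idi1 and Fdps without KI ASK1i replicate 4 and Fdps without KI ASK1i replicate 1. Among the 12 genes from squalene to cholesterol 3 were higher in males and 0 lower, namely Sc5d (0.47, edgeR adjusted p = 0.0135), Dhcr7, the last reductase of the pathway (0.63, edgeR adjusted p = 0.0239), and Nsdhl (0.67, edgeR adjusted p = 0.0396). The calls for Dhcr7 and Nsdhl were lost without any of 3 and 17 of the 33 libraries (adjusted p up to 0.0737 and 0.110), and without replicate 5 of KI ASK1i 5 of the 12 were higher. Of the 3 male WT control libraries, 2 have titles with a P, which no female WT control library has.

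The members other than Ggps1 rose and dipped together from library to library, also after group means were taken out. Across all 33 libraries the 28 pairs among the 8 members other than Ggps1 had Pearson correlations of log2 CPM from 0.75 to 0.98 (median 0.92), and the 8 pairs with Ggps1 from 0.13 to 0.30. After group, sex and title set were taken out, the 28 pairs still had values of 0.58 to 0.94 (median 0.78), highest between Fdps and Fdft1, and those with Ggps1 lay between -0.12 and 0.18. Without replicate 5 of KI ASK1i the 28 pairs had 0.75 to 0.98 across libraries and 0.56 to 0.93 within groups, and those with Ggps1 0.11 to 0.28 and -0.20 to 0.14. These are descriptions over libraries that share groups and normalisation. The values across all libraries include differences between groups, and the library code was not taken out of either kind. Pairs of other genes were not compared. The biological coefficient of variation that edgeR fitted was 0.24 for Acat2, 0.26 for Pmvk, 0.28 for Fdft1 and up to 0.42 for Fdps, against 0.10 for Ggps1.

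**Figure D5:**
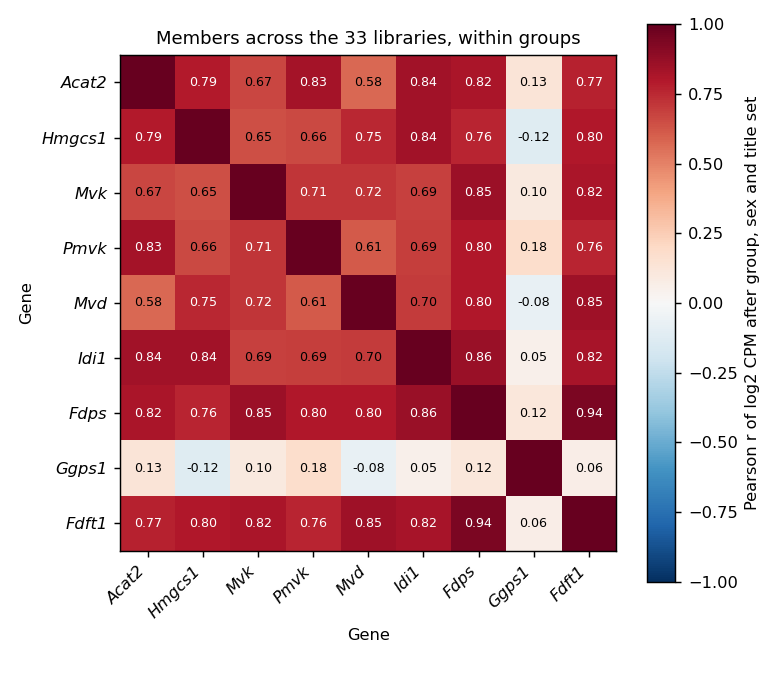
Pearson correlations of log2 CPM between members across the 33 libraries after group, sex and title set were taken out, with colour from -1 (blue) to 1 (red). The row and column of Ggps1 are pale, between -0.12 and 0.18, and all other pairs are 0.58 or higher.

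The 5 genes outside the members with the pattern most like theirs, by Pearson correlation over 33 libraries with the mean of the members' standardised log2 CPM among 11687 genes, were Sc4mol (0.98), Cyp51 (0.97), Nsdhl (0.97), Lss (0.97) and Rdh11 (0.94). The first 4 encode enzymes of the steps from squalene to cholesterol. Rdh11 is known as a retinol dehydrogenase, and its log2 fold change on the ASK1i diet in WT livers was 1.51 (SE 0.22, edgeR adjusted p = 0.000187).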

How the data were processed

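Polyadenylated RNA of 33 mouse liver libraries was sequenced. The labels' protocols name frozen tissue, Qiagen miRNeasy extraction and the TruSeq Stranded mRNA kit. The submitters' processing notes list STAR 2.4, RSEM 1.2.14, CASAVA 1.8.2 and build mm10, without settings. For the annotation, no source used here gives a name. The authors deposited RSEM expected counts by gene without normalisation, and 91.4% to 93.7% of the values in a library are whole (tolerance 1e-09).

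Groups, sexes and title sets (numbered, or numbered with a P) came from the labels. Nothing in them ties each library to its own mouse, and the p-values thus describe spread between libraries, which may be technical. No pair within a group was a repeat (128 pairs, lowest chi-square per gene 23.6). The expected counts were rounded and tested with edgeR 4.0.16 in R 4.3.3 (TMM, filterByExpr, robust quasi-likelihood test, two-sided), in 1 model of all libraries with group, sex and title set. Benjamini-Hochberg adjustment ran over 14934 genes, with a threshold of 0.05. SE is that of the log2 fold change (prior count 0.125). CPM values are TMM-normalised, and levels per kilobase use the longest matching GENCODE transcript. Correlations use log2 CPM with a prior count of 2. Alternatives were RLE size factors, no count filter, DESeq2 1.42.0, limma-voom (limma 3.58.1), other covariates, subsets and each library left out. The scripts were tested on simulated data.

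The members and gene lists were chosen with earlier results of these data known. Every member is named in every comparison, as are at most 3 called genes of each list with the smallest p, Nlrp3, and the 5 genes most like the members. Mmab and Mylip were named after their values were seen, and the L6 libraries alone were tried after seeing the data. Idi2 was not analysed here, and some called genes of the lists are not reported here. Promoter sequences are from RefSeq.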

Additional observations from a re-analysis of the deposited data

Results flagged for a closer look

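Mvk in KI ASK1i had a library far from the others. The lowest library, the one labelled replicate 5 (19.6 CPM), was separated from the next by 0.516 of the range of the group, above the limit of 0.466 for 10 libraries. This library also has a first principal component score inside the WT range. It was the only such value among 36 combinations of member and group, and chance flags about 1 in 20.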

How the results depend on the processing

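The calls of the 8 members that rose on the ASK1i diet in WT livers were the same with each of 33 libraries left out, and under RLE size factors, no filter, DESeq2, limma-voom, the replicate block, group alone and only the 2 groups. They numbered 5 with the library code in place of the title set, 5 with numbered titles alone, and 0 in males, females and L6 libraries alone, where the genes called numbered 0, 8 and 0. Genes called in this comparison were 365 by DESeq2, 133 with the replicate block, 23 with the code, 19 with numbered titles, about 7.0e+02 with only the 2 groups and 101 to 375 with 1 library left out, highest without KI ASK1i replicate 5. For KI over WT on control chow the members called were 7 with the replicate block (50.2% of all genes called), 1 with the code (34.2%) and 1 with numbered titles (43.7%). They were 2 in males (41.9%), 0 in females (23.8%), 1 with only the 2 groups (54.4%) and 2 to 7 with 1 library left out. Genes called in this comparison were 5103 with the code, 3686 in females and 7386 to 8926 with 1 library left out. For KI over WT on the ASK1i diet the members called were 2 by RLE (59.1% of all genes called), 2 by DESeq2 (60%) and 2 with the replicate block (54.9%). They were 3 with the code (55.8%), 0 with numbered titles (47.2%), 0 in females (36.9%) and 4 with only the 2 groups (55.8%). With 1 library left out the members called were 0 to 5 and the genes called 8371 to 9435. In females 5712 genes were called. In KI on the ASK1i diet genes called were 4 by RLE, 37 by DESeq2, 3 with group alone, 0 with the replicate block, code, numbered titles, either sex and only the 2 groups, and 0 to 14 with 1 library left out. For the interaction they were 16 by DESeq2, 2 by limma-voom and 0 to 3 with 1 library left out. Between the sexes genes called were 429 by DESeq2, 26 with the replicate block, 106 with the code, 57 with numbered titles and 110 to 657 with 1 library left out, and members called were 5, 0, 2, 1 and 2 to 6. The cause was not tested.

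Replicate numbers were not used as pairs in the main fit. Same-numbered libraries deviated together (correlation over 0.1) in 3 of 5 pairs of KI ASK1i with KI control and 3 of 7 with WT ASK1i. The same held in 2 of 5 pairs of KI control with WT control and 3 of 8 of WT ASK1i with WT control. Libraries with different numbers were not compared in this way, so these counts cannot show whether the numbers pair the libraries. Values near 0 changed sign. Pmvk in KI over WT on control chow was -0.044 with the code, -0.016 with numbered titles, -0.028 in males, -0.048 in females, -0.13 with only the 2 groups and -0.039 to 0.20 with 1 library left out, and Ggps1 -0.038 in males and -0.0074 to 0.089. Fdps in KI over WT on the ASK1i diet was -0.061 by limma-voom, -0.14 with the code, -0.12 in females and -0.083 to 0.12, and Fdft1 was 0.0055 in males. Ggps1 on the ASK1i diet in WT was -0.0062 in males and -0.0084 in females, and between the sexes -0.029 with the replicate block and -0.0014 to 0.044 with 1 library left out. Nlrp3 on that diet in WT was 0.27 in males, 0.013 with only the 2 groups, 0.22 in L6 and -0.083 to 0.058 with 1 library left out. RLE scaling moved the median of all genes by little (from -0.03 to -0.0035 in KI over WT on control chow). KI control, with 5 libraries and 1 female, limits the comparisons that use it.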

Other observations

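Mmab, a cobalamin enzyme gene that in RefSeq starts 190 bases from Mvk on the other strand, was looked at after its values were seen. It had 37.9, 51.7 and 58.5 CPM (lowest, median and highest) in WT ASK1i, against 11.6, 21.2 and 35.7 CPM in WT control, without overlap, and a log2 fold change of 1.12 (SE 0.16, edgeR adjusted p = 0.000187), beside 1.27 for Mvk. On control chow Mmab was at 0.12 (SE 0.20, edgeR adjusted p = 0.631) in KI over WT, whereas Mvk was at 1.34. On the ASK1i diet Mmab was lower in KI (-0.70, SE 0.16, edgeR adjusted p = 0.000469), with 21.3, 31.2 and 42.7 CPM in KI ASK1i, and Mvk was at 0.51. Without replicate 5 of KI ASK1i Mmab was at -0.68 (adjusted p = 0.000829) and Mvk at 0.61. The difference between the pair was not tested.

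Acat3, the near-copy beside Acat2, averaged 181 ± 24.2 CPM in KI ASK1i (SD, n = 10), 202 ± 15.5 in KI control (n = 5), 268 ± 31.6 in WT ASK1i (n = 8) and 214 ± 45.9 in WT control (n = 10). Its log2 fold change on the ASK1i diet in WT livers was 0.29 (SE 0.10, edgeR adjusted p = 0.173), and in KI over WT on that diet it was lower (-0.57, SE 0.10, edgeR adjusted p = 1.96e-05; without replicate 5 of KI ASK1i -0.64, adjusted p = 1.02e-06).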
